A study of Mus musculus with 4 samples.

Results

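Genes that make, break down and sense cyclic AMP (cAMP) were compared between islets of GPR41 transgenic mice (41 Tg) and islets of WT mice, the islets being the endocrine part of the pancreas. The 36 genes listed are 10 adenylyl cyclases, 15 phosphodiesterases, 6 subunits of protein kinase A (PKA), 2 PKA inhibitors, the anchoring protein gene Akap5 and the 2 Epac genes. A gene was read from a probeset, the group of array probes for a transcript, that the platform annotation pairs with that gene alone, and from the brightest one where there were several. In this way 34 of the 36 were measured, out of 22180 genes tested. Adcy3, whose probeset is shared with another gene, and Rapgef4, which encodes Epac2, were not analysed here.

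Both groups were C57BL/6 mice of 5 to 6 months, and each group had 2 arrays, which the titles call biological replicates without saying how many mice gave the islets of an array. The 41 Tg mice carry a GPR41 transgene whose promoter the labels do not give, and WT is the group they were set against, described as littermates in the design text. GPR41, a receptor for short-chain fatty acids, is encoded by the mouse gene Ffar3. The isolated islets were incubated in RPMI before RNA was purified. All values are log2 levels of Affymetrix Mouse Gene 2.0 ST arrays, and all differences are 41 Tg minus WT on that scale. As a check of the labels, Ffar3 had log2 levels of 11.02 and 10.98 on the 41 Tg arrays, against 7.09 and 6.47 on the WT arrays (limma adjusted p = 0.00203).

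As background, adenylyl cyclases convert ATP to cAMP under the control of stimulatory and inhibitory G proteins, and GPR41 couples to the inhibitory class. Phosphodiesterases hydrolyse cAMP, each family with its own affinity, regulation and location. In the beta cell cAMP amplifies insulin secretion evoked by glucose, through PKA and through the exchange factor Epac, and receptors for glucagon-like peptide-1 act by this route.

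Pde7b, a cAMP-specific phosphodiesterase, was the only one of the 34 genes to pass the test over all genes, and it rose 4.55-fold in 41 Tg islets. Its log2 level was 10.55 and 10.29 on the 41 Tg arrays, against 8.35 and 8.12 on the WT arrays. The arrays of the 2 groups lay far apart, and the arrays within a group lay close together. The log2 difference was 2.19 (SE 0.14, 95% confidence interval 1.84 to 2.54, limma adjusted p = 0.00597). Among all 22180 genes it ranked 42 by the size of its increase. Of the 34 genes, 1 passed upward and 0 downward. Over all genes 0.897% passed in either direction, 0.672% upward and 0.225% downward.

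Leaving out each array in turn gave log2 differences of 2.06 to 2.32 for Pde7b and adjusted p-values of 0.0145 to 0.0462. Each of these fits sets 1 array of a group against 2 of the other, so the lone array is assumed to vary like the other group, which alone gives the spread together with limma's pooled variance. With the replicate number as a block its adjusted p was 0.0383. Only 21 of the 22180 genes passed in the fit of all arrays, in the fit with this block and in each of the 4 fits without 1 array, and Pde7b was among them, under the same assumption about the lone array. Without limma's pooling of variance over genes no gene passed, and the adjusted p of Pde7b was 0.472. These p-values rest on 2 arrays a group, where an exact permutation test cannot give a two-sided p below 0.333.

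**Figure D1:**
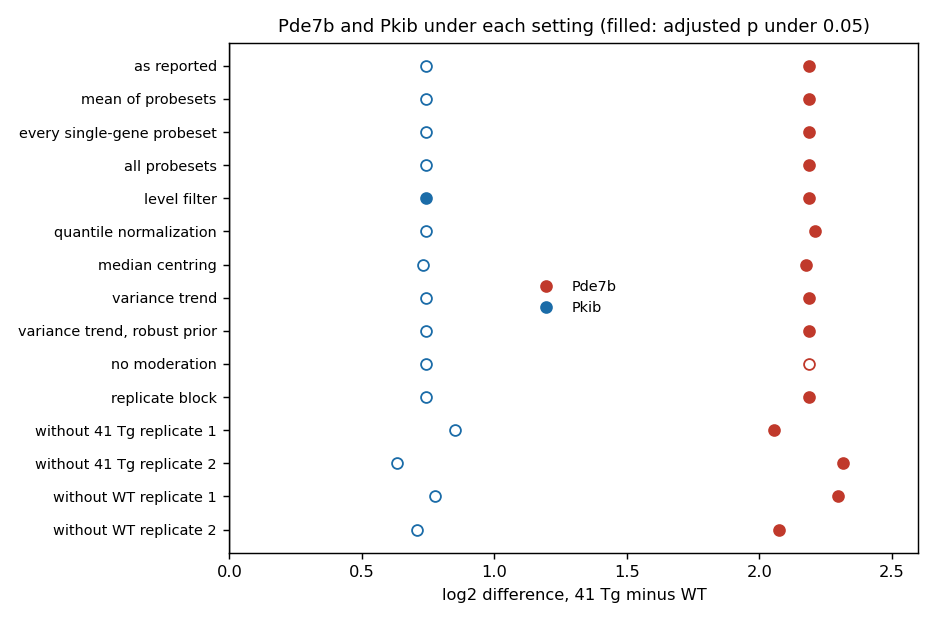
Log2 difference (41 Tg minus WT) of Pde7b and Pkib as reported and under each other setting, with filled points where the adjusted p was under 0.05. Pde7b stayed between 2.06 and 2.32 and lost its call only without moderation, while Pkib stayed between 0.63 and 0.85 and passed only under the level filter.

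Sequences upstream of Pde7b and Pkib, which had the largest differences of the list, are shown beside that of Prkar1a, the only measured gene of the list with a complete cAMP response element in the windows searched. They are RefSeq sequences of GRCm38.p6, each the 250 bases before an annotated start, written 5′ to 3′ on the strand of the gene. They lie at chr10:20548329-20548578 (minus strand) for Pde7b, at chr10:57631731-57631980 (plus strand) for Pkib and at chr11:109650699-109650948 (plus strand) for Prkar1a. Capitals mark a match to the gamma-activated site of STAT factors, TTCNNNGAA, in the Pkib sequence and to the cAMP response element of CREB factors, TGACGTCA, in the Prkar1a sequence.
Pde7b upstream window: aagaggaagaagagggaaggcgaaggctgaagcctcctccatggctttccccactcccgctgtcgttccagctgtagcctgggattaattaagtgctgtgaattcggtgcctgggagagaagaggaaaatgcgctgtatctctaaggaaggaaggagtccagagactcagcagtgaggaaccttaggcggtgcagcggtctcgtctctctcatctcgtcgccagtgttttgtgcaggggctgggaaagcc
Pkib upstream window: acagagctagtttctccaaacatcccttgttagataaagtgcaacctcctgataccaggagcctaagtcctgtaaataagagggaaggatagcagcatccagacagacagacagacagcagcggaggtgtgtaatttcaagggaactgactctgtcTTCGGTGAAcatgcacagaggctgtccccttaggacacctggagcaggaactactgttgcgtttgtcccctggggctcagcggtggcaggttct
Prkar1a upstream window: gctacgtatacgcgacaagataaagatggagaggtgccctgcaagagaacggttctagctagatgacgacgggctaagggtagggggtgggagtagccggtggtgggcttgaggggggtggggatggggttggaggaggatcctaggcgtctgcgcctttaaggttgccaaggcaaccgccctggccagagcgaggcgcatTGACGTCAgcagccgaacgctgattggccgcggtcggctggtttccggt

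The search covered both strands of 65 windows of 300 bases, from 250 before to 50 after an annotated start, which the table held for 28 of the 34 measured genes. Windows for Adcy6, Adcy8, Pde3a, Pde3b, Pde7a and Pkia were not used here. The complete element TGACGTCA was in 2 of the 65 windows, which are overlapping windows of Prkar1a that share the same match, against 1.79% of all 32851 windows. Its core TGACG, which the complete element contains, was in 16 windows (24.6%, against 20.8% of all windows), and TTCNNNGAA was in 8 (12.3%, against 8.3%). The Pde7b window held none of these letters. The match in Pkib began 94 bases before the start whose window is shown, and that in Prkar1a 49 bases before the start shown. A match is a description of the letters only.

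Among the other phosphodiesterases no gene passed over all genes. Of all 15 phosphodiesterases, Pde7b included, 10 had a difference below 0 (66.7%, against 54.3% of all genes). The family median was -0.09, beside -0.02 over all genes tested. Pde7a, the paralogue of Pde7b, had log2 levels of 6.84 and 6.75 in 41 Tg islets and 6.82 and 6.97 in WT islets, so its groups overlapped, with a log2 difference of -0.09 (95% confidence interval -0.37 to 0.19). That interval lies wholly below the interval of Pde7b, although the difference between the 2 genes was not itself tested.

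Pde2a, which cyclic GMP stimulates, had log2 levels of 8.72 and 8.37 in 41 Tg islets, against 7.93 and 8.20 in WT islets. Its groups did not overlap, and the log2 difference was 0.48 (SE 0.16, limma adjusted p = 0.348). Pde4b, of the cAMP-specific family that rolipram inhibits, had log2 levels of 6.27 and 6.16 in 41 Tg islets, against 6.68 and 6.50 in WT islets (log2 difference -0.38, limma adjusted p = 0.299). Both 41 Tg arrays lay below both WT arrays, as they did for Pde10a, a phosphodiesterase of cAMP and cyclic GMP, with log2 levels of 7.52 and 7.46 in 41 Tg islets and 7.70 and 7.92 in WT islets (log2 difference -0.32). None of these 3 passed over all genes.

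Pde3b, the cyclic GMP-inhibited enzyme that limits insulin secretion in beta cells, had log2 levels of 10.92 and 10.92 in 41 Tg islets and 11.10 and 10.98 in WT islets. Its log2 difference of -0.12 had a 95% confidence interval of -0.39 to 0.14, and its groups did not overlap. The calcium- and calmodulin-stimulated enzyme gene Pde1c had log2 levels of 7.01 and 7.33 in 41 Tg islets, around the 7.23 and 7.23 of WT islets (log2 difference -0.06, interval -0.40 to 0.28). Pde8b, of a cAMP-specific family that the general inhibitor IBMX does not block, had log2 levels of 6.55 and 6.41 in 41 Tg islets and 6.61 and 6.22 in WT islets (log2 difference 0.07, interval -0.32 to 0.46). For these 3 genes the intervals hold no 2-fold change in either direction.

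The remaining phosphodiesterases had log2 differences between -0.19 and 0.19 without passing. Those below 0 were Pde4a (-0.19), Pde3a (-0.18), Pde1a (-0.14), Pde4d (-0.09) and Pde8a (-0.07). Those above 0 were Pde1b (0.19) and Pde4c (0.03). Pde3a, with log2 levels of 6.06 and 6.20 in 41 Tg islets and 6.36 and 6.26 in WT islets, had groups that did not overlap, and so had Pde1b, with 5.12 and 5.07 in 41 Tg islets and 4.96 and 4.84 in WT islets.

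**Figure D2:**
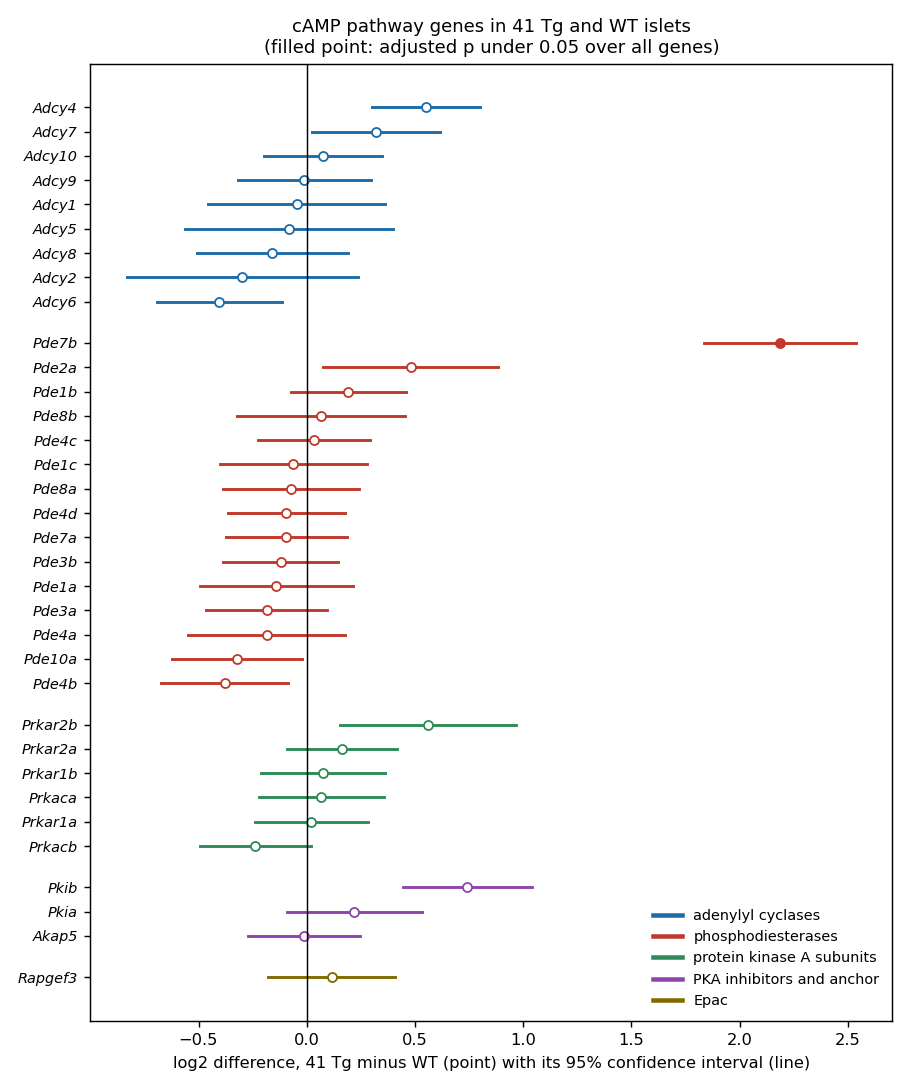
Log2 difference (41 Tg minus WT) of the 34 measured genes, grouped by role, with 95% confidence intervals from limma as lines and a filled point where the adjusted p over all genes was under 0.05. Pde7b alone is filled, at 2.19, and the next are Pkib at 0.74, Prkar2b at 0.56 and Adcy4 at 0.55.

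The 9 measured adenylyl cyclases held no gene past limma's test over all genes and 3 with an unadjusted p under 0.05, of which 2 were higher (22.2%, against 6.13% of all genes) and 1 was lower (11.1%, against 5.72%), and their median difference was -0.05. Adcy4, of the cyclases that G protein beta-gamma subunits can stimulate, had log2 levels of 7.31 and 7.26 in 41 Tg islets, against 6.74 and 6.73 in WT islets. The groups were well apart beside the spread within each, and the log2 difference was 0.55 (SE 0.10, interval 0.30 to 0.80). The unadjusted limma p of 0.00182 did not pass after adjustment over all genes. Adcy7, of the same group of cyclases, had log2 levels of 6.42 and 6.27 in 41 Tg islets, against 6.11 and 5.94 in WT islets (log2 difference 0.32, limma adjusted p = 0.386).

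Adcy6, a cyclase inhibited by calcium and by inhibitory G proteins, had log2 levels of 8.94 and 8.85 in 41 Tg islets, against 9.39 and 9.21 in WT islets. Both 41 Tg arrays lay below both WT arrays, with a log2 difference of -0.40 (SE 0.12, interval -0.69 to -0.12, limma adjusted p = 0.263). Adcy5, its close relative, had log2 levels of 5.43 and 5.86 in 41 Tg islets and 5.55 and 5.91 in WT islets, where the arrays of a group differed by more than the groups did (log2 difference -0.08).

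Adcy8, a cyclase stimulated by calcium and calmodulin, had log2 levels of 5.64 and 5.31 in 41 Tg islets and 5.66 and 5.60 in WT islets (log2 difference -0.16, interval -0.51 to 0.19). Adcy9 had log2 levels of 9.51 and 9.36 in 41 Tg islets and 9.54 and 9.34 in WT islets (log2 difference -0.01, interval -0.32 to 0.30). Both genes had overlapping groups. The other cyclases did not pass either, with log2 differences of -0.30 for Adcy2, -0.05 for Adcy1, which calcium and calmodulin stimulate, and 0.08 for Adcy10, the soluble cyclase that bicarbonate activates. Adcy10 lay below the first quartile of all tested genes on all 4 arrays. Of the 34 genes, 13 lay below the median of all 4, where differences may be compressed. These 13 were the cyclases Adcy1, Adcy2, Adcy5, Adcy7, Adcy8 and Adcy10, the phosphodiesterases Pde1a, Pde1b, Pde3a, Pde4c and Pde4d, and Akap5 and Rapgef3.

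**Figure D3:**
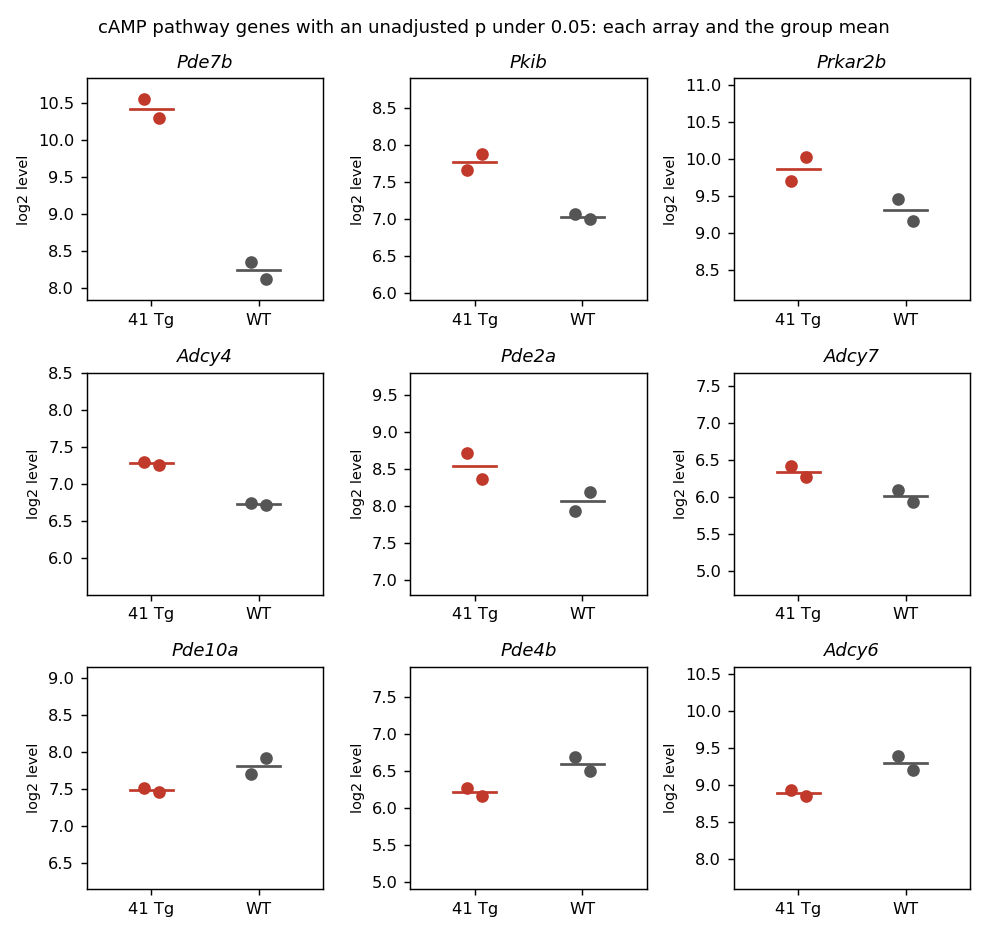
Log2 level on each array (points) and group mean (line) of the 9 genes with an unadjusted p under 0.05, 41 Tg left of WT, on axes that all span 3 log2 units. The group means differ by 2.19 for Pde7b and by 0.74 or less in size for the others. The groups of none of the 9 overlap, which choosing genes by p with 2 arrays a group favours.

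The cAMP effectors, that is PKA, its inhibitors and anchor and Epac1, had 8 of 10 measured genes above 0. The other 2 were below 0 (20%, against 54.3% of all genes), and the median difference was 0.09, beside -0.02 over all genes. Of the 8, Prkaca and Prkar1a turned sign with an array left out. At an unadjusted p under 0.05, 2 effectors were higher (20%, against 6.13% of all genes) and 0 were lower. Pkib, an inhibitor that occupies the catalytic site of PKA, had log2 levels of 7.66 and 7.88 in 41 Tg islets, against 7.06 and 6.99 in WT islets. Its groups did not overlap and its log2 difference was 0.74 (SE 0.12, interval 0.44 to 1.04), which is 1.67-fold. The limma adjusted p was 0.0716, which missed the threshold of 0.05, and it was 0.0454 when only genes above the median level were tested. Pkia, the related inhibitor, had log2 levels of 9.02 and 9.20 in 41 Tg islets, against 8.98 and 8.79 in WT islets (log2 difference 0.22, limma adjusted p = 0.580).

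Prkar2b, the type II beta regulatory subunit of PKA, had log2 levels of 9.70 and 10.03 in 41 Tg islets, against 9.46 and 9.16 in WT islets. The groups did not overlap, although the arrays of each group were some way apart, and the log2 difference was 0.56 (SE 0.16, limma adjusted p = 0.271). Prkacb, a catalytic subunit, had log2 levels of 11.33 and 11.28 in 41 Tg islets, against 11.59 and 11.50 in WT islets (log2 difference -0.24, interval -0.50 to 0.02). Both 41 Tg arrays were lower for this gene, which was the only PKA subunit with a difference below 0.

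Prkaca, the other catalytic subunit, had log2 levels of 10.33 and 10.40 in 41 Tg islets and 10.39 and 10.20 in WT islets (log2 difference 0.07, interval -0.22 to 0.36). Prkar1a, the type I alpha regulatory subunit whose upstream sequence holds the complete element shown above, had log2 levels of 9.43 and 9.47 in 41 Tg islets and 9.48 and 9.38 in WT islets (log2 difference 0.02, interval -0.24 to 0.28). The groups of both genes overlapped. The regulatory subunit genes Prkar2a (0.16) and Prkar1b (0.08), the anchoring protein gene Akap5 (-0.01) and Rapgef3, which encodes Epac1 (0.11), did not pass either.

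Over the 34 genes, the counts were read against those of all genes tested. At an unadjusted p under 0.05, 6 genes were higher (17.6%, against 6.13% of all genes) and 3 were lower (8.82%, against 5.72%). These 9 genes became 4 to 6 with an array left out (4 without 41 Tg replicate 2, 6 without any other array) and 5 without moderation. A limit of 1.5-fold at that p left 2 higher genes, Pde7b and Pkib, and 0 lower ones (against 2.35% and 1.13% of all genes, 3.48% in either direction). The groups did not overlap, with 41 Tg higher, for 9 genes (26.5%, against 18.6% of all genes), and with 41 Tg lower for 6 (17.6%, against 23.7%). The median difference of the 34 was -0.01 and the median size of a difference was 0.15, beside -0.02 and 0.12 over all genes.

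**Figure D4:**
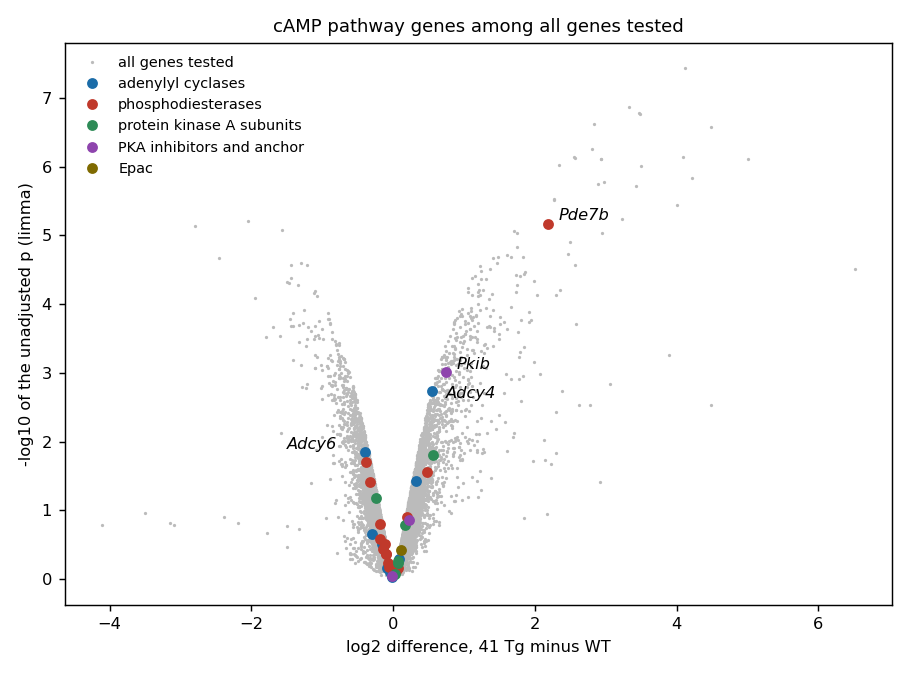
Log2 difference (41 Tg minus WT, horizontal axis) against -log10 of the unadjusted limma p (vertical axis) for all 22180 genes in grey and the 34 cAMP genes in colour by role. Pde7b, at 2.19, stands apart from the other 33, which lie between -0.40 and 0.74.

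Levels in whole islets depend on cell makeup, and fewer cells of a type and less RNA per cell cannot be told apart. Of the 14 measured leukocyte markers, all 14 were higher in 41 Tg islets, with a list mean of 8.37 and 8.12 on the 41 Tg arrays, against 7.50 and 7.26 on the WT arrays. All 12 endothelial markers were higher, with a list mean of 8.78 and 8.50 on the 41 Tg arrays, against 8.31 and 8.10 on the WT arrays. Of 11 mesenchymal markers, 10 were higher (7.10 and 6.98 on the 41 Tg arrays, against 6.61 and 6.70 on the WT arrays). Both 41 Tg arrays lay above both WT arrays for 13 of the 14 leukocyte markers (92.9%) and 11 of the 12 endothelial ones (91.7%), against 18.6% of all genes. This held for 6 of the 11 mesenchymal markers (54.5%), while 1, Cspg4, was lower on both 41 Tg arrays (9.09%, against 23.7% of all genes). The groups of the remaining 4, Col1a1, Col1a2, Col3a1 and Lum, overlapped. At least 1.5-fold higher with an unadjusted p under 0.05 were 11 leukocyte markers (78.6%), 3 endothelial (25.0%) and 2 mesenchymal ones (18.2%), against 2.35% of all genes. After adjustment over all genes 1 of the 37 passed, Coro1a of the leukocyte list (7.14% of that list, against 0.672% of all genes upward). No leukocyte or endothelial marker lay below the first quartile on all 4 arrays, and among the mesenchymal ones Lum did. Adcy4, Adcy7 and Pde2a were among the 9 of the 34 cAMP genes with both 41 Tg arrays above both WT arrays. Another 6 were lower on both 41 Tg arrays, Pde4b among them (log2 difference -0.38), and the groups of Pde7a overlapped (-0.09). The part of leukocytes, endothelial and mesenchymal cells in any of these differences, and in those of Pde7b and Pkib, was not tested.

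Endocrine markers stood as follows. Markers of alpha, delta and PP cells were lower for 7 of 8 measured genes, with a list mean of 10.77 and 10.81 on the 41 Tg arrays, against 11.26 and 11.05 on the WT arrays, and 0 passed limma's test over all genes, with 3 lower at an unadjusted p under 0.05 (37.5%, against 5.72% of all genes), namely Irx2 (-0.86), Irx1 (-0.67) and Ttr (-0.45). Beta cell markers had a median difference of -0.08 over 10 genes, with 0 past limma's test over all genes and 2 lower at an unadjusted p under 0.05 (20.0%, against 5.72% of all genes). These were Ucn3, a peptide of mature beta cells (log2 difference -0.60), and Slc30a8, the zinc transporter of insulin granules (-0.33). The insulin gene Ins2 had log2 levels of 12.52 and 12.59 in 41 Tg islets and 12.57 and 12.46 in WT islets. The part of these shifts in Adcy6, Pde4b, Pde10a and Prkacb, which were lower, was not tested. Acinar markers differed most between the WT arrays, at list means of 10.85 and 10.56 on the 41 Tg arrays and 10.24 and 11.10 on the WT arrays, and so did duct markers, at 8.64 and 8.49 on the 41 Tg arrays and 8.04 and 9.04 on the WT arrays. Among the 7 duct markers Cftr rose by 2.30 and Prom1 fell by 1.00 on the log2 scale (limma adjusted p = 0.0211 and 0.0355). Each was 14.3% of that list, against 0.672% of all genes upward and 0.225% downward. Schwann and neural markers had a median difference of 0.02 over 6 genes. On all 4 arrays 4 of these lay below the median, and 2, S100b and Cdh19, below the first quartile. Ngfr of this list had log2 levels of 6.51 and 6.70 on the 41 Tg arrays, against 5.68 and 5.07 in WT. Its log2 difference was 1.23 (limma adjusted p = 0.0874). It was the only 1 of the 6 past the 1.5-fold limit (16.7%, against 2.35% of all genes upward).

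Of 138 other measured genes of the pathway, 1 passed over all genes and it fell (0.725%, against 0.225% of all genes in that direction). This was Vipr1, a receptor for vasoactive intestinal peptide that couples to the stimulatory G protein. Its log2 level was 7.72 and 7.77 in 41 Tg islets, against 8.63 and 8.49 in WT islets (log2 difference -0.82, SE 0.11, limma adjusted p = 0.0431). The call was lost with each array left out (adjusted p 0.0965 to 0.262) and with the replicate block (0.186), although the difference stayed between -0.89 and -0.75. Vipr2, the second receptor for this peptide, had log2 levels of 7.22 and 7.30 in 41 Tg islets, against 8.82 and 8.15 in WT islets (log2 difference -1.23, SE 0.22, limma adjusted p = 0.0948). Without WT replicate 2 its difference was -1.56 (adjusted p = 0.0300), but that fit leaves out the wide spread between the WT arrays and takes its spread from the 41 Tg arrays. The glucagon receptor gene Gcgr (-0.63) and the cannabinoid receptor gene Cnr1 (0.46) followed without passing, and the receptor list of 24 genes had a median of 0.03.

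The other lists held no gene past limma's test over all genes. At an unadjusted p under 0.05, 8 of the 138 genes were higher (5.80%, against 6.13% of all genes) and 16 were lower (11.6%, against 5.72%). Among further cAMP sensors and relatives of PKA, 13 of 19 genes were below 0, with a median of -0.17. Ppp1r1a, a phosphatase inhibitor that PKA switches on, had log2 levels of 9.32 and 9.66 in 41 Tg islets, against 10.34 and 10.20 in WT islets (log2 difference -0.78, SE 0.15, limma adjusted p = 0.110). Prkg1, a cyclic GMP-dependent kinase, was at -0.63, and Rapgef5, an exchange factor related to Epac, was at 0.76. Rapgef5 had log2 levels of 7.40 and 6.94 in 41 Tg islets, against 6.34 and 6.49 in WT islets, so its groups did not overlap.

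The list of G protein subunits, which also held Ric8a, Ric8b, Cap1 and Cap2, had a median of 0.01 over 20 genes. It was led by Gng2 (0.59), Cap2 (0.46) and the inhibitory alpha subunit gene Gnai1 (0.42), none of which passed. Cap2 is not a G protein subunit and is named for a cyclase-associated protein of yeast. Among 16 genes of Epac and Rap action in exocytosis, Unc13a, a vesicle priming factor, was at -0.40, Rap2b at 0.38 and Rap1gap at 0.35. The 20 measured genes of the CREB family, its coactivators and its targets had a median of -0.11, with Per1 at -0.44, the coactivator gene Crtc3 at -0.34 and Nr4a2 at -0.33. The 26 other anchoring protein genes had a median of -0.05, with Akap12 at 0.37, Akap2 at 0.34 and Akap8 at -0.29. The list of other phosphodiesterase genes and cAMP exporters had a median of 0.02 over 13 genes, with Pde6h at -0.36, Pde6a at -0.23 and Pde6d at 0.17. A place in this list does not by itself mean that the product breaks down or exports cAMP. Of these 13 genes 4, Pde6h and Pde6a among them, lay below the first quartile of all tested genes on all 4 arrays.

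**Figure D5:**
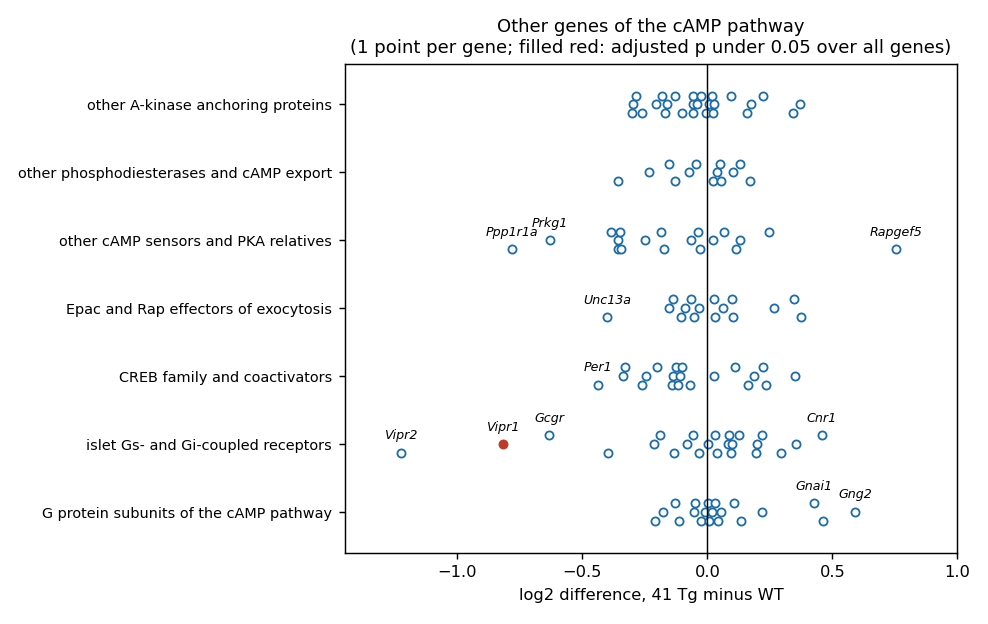
Log2 difference (41 Tg minus WT, horizontal axis) of 138 other genes of the cAMP pathway in 7 lists, 1 point per gene, filled red where the adjusted p over all genes was under 0.05. Only Vipr1 is filled, at -0.82, with Vipr2 farther left at -1.23.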

How the data were processed

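Gene expression was measured on 4 arrays of islet total RNA (250 ng labelled, per the labels' protocols), with groups taken from the sample titles. The deposited log2 values, 27037 probesets from 2.87 to 13.9, were made with Partek and RMA per the submitters' processing notes, without versions. RMA corrects background and equalises arrays, which compresses differences near background. The genome build was not given in the sources used here. Probesets with 1 symbol numbered 23521, those with several 1814 and those without 1702, and only the first kind was used.

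A linear model (lmFit, then eBayes, limma 3.58.1 in R 4.3.3) was fitted to the log2 values of 22180 genes, and p-values were adjusted by the Benjamini-Hochberg method over all of them, with no filter on dim genes and with 2 residual and 3.76 prior degrees of freedom. The p-values measure only the spread between these arrays, which may be technical. The steps were tested on simulated data. Genes and lists were chosen with earlier results of these data known. By rule all 36 listed genes are named, with array values for those past the adjusted or 1.5-fold limit, for the 3 of each role (cyclases, phosphodiesterases, effectors) with the smallest p and for a set of islet genes in the rule. Those of Pde7a, Pde10a, Pde3a, Pde1b and Pkia were added after their values were seen. Each other list names called genes and up to 3 more. The promoter motifs were chosen after values were seen. Array medians lay between 6.43 and 6.47, and Pearson's r over probesets was 0.994 within 41 Tg, 0.991 within WT and 0.986 to 0.987 between them. The number of arrays limits the precision. Alternatives changed the probeset rule, genes tested, normalisation, variance model, replicate block and arrays. Replicate differences correlated at -0.063 between the groups, so the numbers were not taken to pair arrays.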

Additional observations from a re-analysis of the deposited data

How the results depend on the processing

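All alternatives were planned. The 1 gene of the cAMP list past the adjusted threshold became 2 with the level filter, which added Pkib, and 0 without moderation; the other settings, each array left out among them, gave 1. The 2 genes past the 1.5-fold limit became 1 at a 2-fold limit, and the 9 with an unadjusted p under 0.05 became 5 without moderation and 4 to 6 with an array left out. The count over all genes, 199, was 347 with a robust prior on the variance trend, 24 with the replicate block, 0 without moderation and 38 to 135 with an array left out; the 772 of the 1.5-fold count were 416 without moderation and 262 at a 2-fold limit. The other pathway genes past the threshold, 1, were 3 with the robust prior (Vipr1, Vipr2 and Ppp1r1a), 0 with the replicate block, 0 without moderation and 0 to 1 with an array left out. With an array left out, the median difference ranged from -0.026 to 0.065 for the 34 genes, -0.089 to 0.069 for cyclases, -0.13 to -0.056 for phosphodiesterases and 0.021 to 0.15 for effectors, so the sign for the list and for cyclases turned with single arrays. Of the 34 genes, 13 turned sign, all among those not past the threshold. Adcy9 was at 0.021 with quantile normalisation, and with an array left out the ranges were -0.11 to 0.090 for Adcy9, -0.22 to 0.12 for Adcy1, -0.30 to 0.14 for Adcy5, -0.32 to 0.0058 for Adcy8, -0.00071 to 0.15 for Adcy10, -0.31 to 0.027 for Pde1a, -0.22 to 0.10 for Pde1c, -0.020 to 0.087 for Pde4c, -0.21 to 0.059 for Pde8a, -0.13 to 0.26 for Pde8b, -0.028 to 0.16 for Prkaca, -0.029 to 0.071 for Prkar1a and -0.065 to 0.037 for Akap5. The cause was not tested. Among the cAMP genes, the named genes of the other pathway lists and Ffar3, the replicate block changed no call other than that of Vipr1. The marker genes Coro1a, Cftr and Prom1 were not among the 21 genes that passed in all of the fits with the block or without an array.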

Other observations

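Dimmer second probesets were present for Rapgef3, Pde7a and Prkaca, and none of the 3 departed in sign or call from the brightest probeset.

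Motif letters were also counted beyond the sequences shown. TTCNNNGAA was in windows of 6 of the 28 genes with a window (21.4%, against 9.55% of the 27025 genes of the table). These were Adcy7, Pde1b, Pde1c, Pde4b, Pde8b and Pkib. The core TGACG was in windows of 14 of the 28 genes (50%, against 23%). The complete TGACGTCA was in those of 1 gene (3.57%, against 2.03%). Several windows of a gene overlap, so windows are not independent. The 28 genes had 65 windows and the 27025 genes had 32851, so a gene of the list had more windows on average. More windows give more places for a match, so these shares by gene are not on equal terms.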
